A study of Homo sapiens with 4 samples.

Results

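Of the 20322 gene targets measured in HT-29 cells, 48 encode subunits, activators or assembly factors of the proteasome. They were taken by symbol, as every gene named PSMA, PSMB, PSMC, PSMD, PSME, PSMF or PSMG with a number, plus POMP and ADRM1. PSMB8 and PSMB9, catalytic subunits induced by interferon, were left out of the set and serve below as a comparison. HT-29 is a human colorectal adenocarcinoma line, and in all 4 libraries the gene of the RNA-binding protein IMP1 (symbol IGF2BP1) had been targeted with CRISPR/Cas9. The 2 IMP1-OE libraries came from such cells carrying a PiggyBac vector for FLAG-tagged IMP1 with a short UTR, and the 2 null libraries from cells carrying the empty PiggyBac vector. All were kept in medium with puromycin. The labels name a mouse liver metastasis as their tumour of origin, and the design text speaks of 2 lines per genotype. They do not say whether the lines are clones or separate cultures, and p-values therefore speak only of the spread among these 4 libraries, part or all of which could be technical. The comparison asks how mRNA levels differ once IMP1 is expressed again.

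The proteasome degrades proteins marked with ubiquitin. Its barrel, the core particle, stacks rings of alpha and beta subunits, and the proteolytic sites sit on the beta subunits PSMB5, PSMB6 and PSMB7. A regulatory particle caps the barrel: its base holds a ring of ATPases (PSMC genes) that unfold the substrate, and its lid (PSMD genes) removes the ubiquitin. Under interferon, cells swap in other catalytic beta subunits and the PA28 activator, which favours peptides for antigen presentation. Outside that setting the subunit genes are known to be expressed together, under the transcription factor NFE2L1 when proteasome capacity is short.

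Library totals ran from 9343429 to 10594813 estimated counts, of which the 48 members took 1.07% and 1.02% in IMP1-OE and 0.866% and 0.893% in null. ARSI, an arylsulfatase gene, took 8.01% and 12.4% of the counts in IMP1-OE and 17.8% and 17.3% in null, and levels are therefore given as CPM, the usual depth-scaled count, after TMM scaling for composition. IGF2BP1 stood at 6.76 and 10.6 CPM in IMP1-OE and at 3.62 and 1.75 CPM in null, higher in both IMP1-OE libraries as their labels say, with an edgeR adjusted p of 0.453. Of 14 colorectal epithelial markers, 12 passed the filter on low counts, and their summed level, led by KRT8, was 27316 and 27928 CPM in IMP1-OE and 29708 and 22089 CPM in null. Of the 12, 10 were lower and 2 higher in IMP1-OE. The groups did not overlap for KRT18, which was higher, or for LGALS4, CLDN7, CLDN3 and CLDN4, which were lower. CLDN7 and CLDN4, tight junction claudins, were lower at an unadjusted edgeR p under 0.05. With null replicate 1 or 2 left out, the log2 fold change of KRT18 was 0.56 or 0.11 and that of CLDN4 -0.84 or -0.27. Null replicate 1 was the highest library in CEACAM5 and LGALS4. CEACAM5 had 6.38 and 10.2 CPM in IMP1-OE and 59.3 and 3.83 CPM in null. LGALS4 had 1322 and 1183 CPM in IMP1-OE and 2546 and 1413 CPM in null. With null replicate 1 or 2 left out, the log2 fold change of CEACAM5 was 1.11 or -2.84 and that of LGALS4 -0.17 or -1.02. The intestinal factors CDX1 and CDX2 were under 5 CPM in every library. Of 15 markers of stromal, endothelial, immune and liver cells, ALB, APOA1 and CD3E had no count in any of the 4 libraries. The summed level of these 15 was 1905 and 1754 CPM in IMP1-OE and 2825 and 1399 CPM in null, and all but a small part of it was LYZ, lysozyme, which gut epithelium also makes. Null replicate 2 stood apart. Of 36 tested interferon-stimulated genes, 35 were higher in it than in null replicate 1, and the list summed to 2799 and 2955 CPM in IMP1-OE against 3286 and 12940 CPM in null replicates 1 and 2. All 36 were lower in IMP1-OE, against 51.9% of all genes. Of the 36, 29 had an unadjusted edgeR p under 0.05, against 5.84% of all genes lower at that p, and 0 passed the adjusted threshold. The median log2 fold change was -2.38. Once null replicate 2 was omitted it was -0.29, with 27 of the 36 lower and 9 higher. The 5 with the smallest p were ISG20, IFIT2, OASL, HERC5 and UBE2L6. In DESeq2 these passed, with an adjusted p of 0.00111, 0.00935, 0.0183, 0.0165 and 0.0474 in that order. Without null replicate 2 their edgeR log2 fold changes were -2.12, -1.58, -1.02, -3.34 and -2.79. HERC5 had 1 count in each IMP1-OE library. ISG20, an exonuclease, was the one gene of the 36 not higher in null replicate 2, at 10.3 and 12.5 CPM in IMP1-OE and 49.6 and 30.9 CPM in null. With that library left out, 25 of the 46 tested proteasome members had a log2 fold change that moved by over 1.5 times, 21 of them to a smaller size or another sign, and the value without it is given beside those described. With null replicate 1 left out, 19 members moved by over 1.5 times, 14 of them to a larger size and 5 to a smaller size or another sign. With IMP1-OE replicate 1 or 2 left out, 8 and 9 members moved as far.

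Most proteasome genes stood slightly higher in IMP1-OE, and a few that interferon is known to induce stood lower. Of the 48 members, 46 passed the low-count filter. PSMA8, a testis subunit, had no count in any library, which allows up to 3 counts each, and PSMB11, a thymus subunit, had 6 and 2 counts in IMP1-OE and 0 and 6 in null. None of the 46 passed an adjusted p of 0.05 in edgeR's quasi-likelihood test (smallest 0.435, PSME1), and 0% of all 12113 genes tested did. DESeq2 and the authors' deposited table called 0 members as well, where either called 1.28% of the genes with an adjusted p. Both give the members the same adjusted p-values, so they are not separate tests. At an unadjusted edgeR p under 0.05 there were 6 members higher in IMP1-OE, 13% of those tested against 4.34% of all genes, and 1 lower, 2.17% against 5.84%. The 6 became 18 (39.1%, against 12.7% of all genes) without null replicate 1 and 8 (17.4%, against 7.23%) without null replicate 2, 0 without either IMP1-OE library (against 1.32% and 0.768%), 3 (6.38%, against 3.29%) with no low-count filter, and 2 (4.35%, against 4.61%) with the replicate number as a block. Both directions together came to 7 members, 15.2% against 10.2% of all genes. The fitted log2 fold change, IMP1-OE over null, was above 0 for 36 of the 46 (78.3%), where it was above 0 for 48.1% of all genes, and below 0 for 10 (21.7%, against 51.9%). Its median was 0.28 over the members and -0.02 over all genes. Both IMP1-OE libraries exceeded both null libraries for 30 members (65.2%, against 21.3% of all genes), and both lay below for 6 (13%, against 21.9%).

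**Figure D1:**
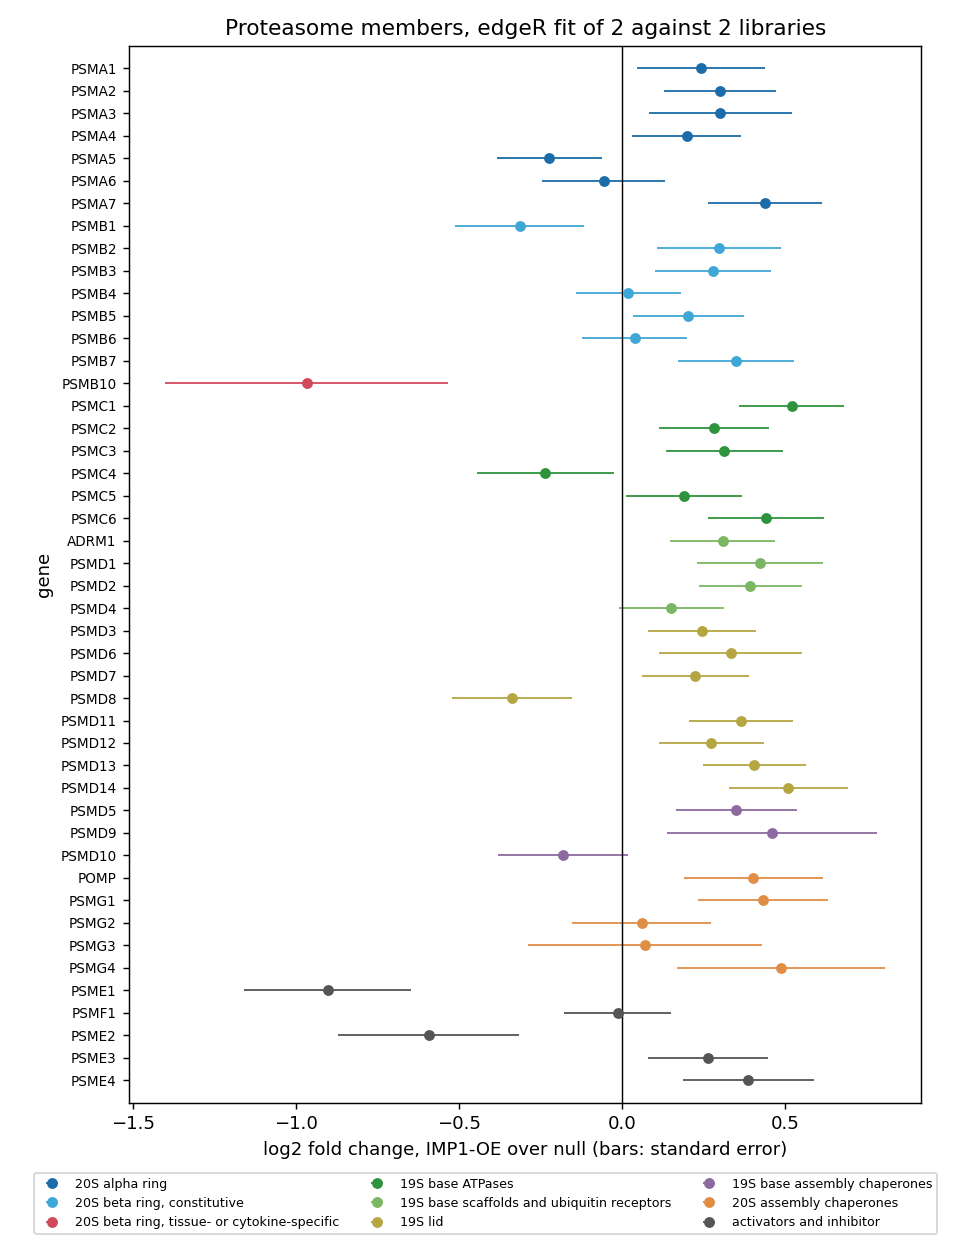
Fitted log2 fold change, IMP1-OE over null, of the 46 tested members (points, coloured by role), with standard errors as bars. Of these, 36 lie above 0, and PSMB10, PSME1 and PSME2 are the only ones beyond 1.5-fold, all lower in IMP1-OE.

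Most differences were small. Of the 46, 43 lay within 1.5-fold, while 23.2% of all genes lay beyond it. The 3 outside were PSMB10, PSME1 and PSME2, all lower in IMP1-OE. Standard errors of the members' log2 fold changes ran from 0.16 to 0.43 with a median of 0.18. Over all genes the median standard error was 0.30, so shares of members set against all genes are not matched for spread. For 17 of the 46 (37.0%) the null libraries differed from each other by more than the groups did, against 58.8% of all genes.

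The alpha subunits form the outer rings of the barrel and its gate. Of 7 tested, 5 were higher in IMP1-OE, and the median log2 fold change of all 7 was 0.24, and 0.16 with null replicate 2 omitted. PSMA7 stood at 751 and 637 CPM in IMP1-OE and at 541 and 483 CPM in null. Both IMP1-OE libraries were above both null libraries, and the log2 fold change was 0.44 (SE 0.18, edgeR adjusted p 0.485). PSMA3 was at 184 and 191 CPM in IMP1-OE and 179 and 125 CPM in null, and its log2 fold change of 0.30 was 0.06 with null replicate 2 omitted and 0.59 with null replicate 1 omitted. PSMA5 lay on the other side, at 172 and 180 CPM in IMP1-OE against 206 and 204 CPM in null, with groups that did not overlap. Its log2 fold change was -0.22 (SE 0.16). PSMA6 was at 100.3 and 93.0 CPM in IMP1-OE and 111 and 90.2 CPM in null, and its groups overlapped; its log2 fold change was -0.06, and 0.03 under library totals only. Each of the 7 alpha subunit mRNAs was lower in null replicate 2 than in its partner, the median log2 difference being -0.16.

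Among the 7 constitutive beta subunits, 6 were higher in IMP1-OE with a median of 0.20, and 0.14 with null replicate 2 omitted. The catalytic ones differed little. PSMB5, which cuts after hydrophobic residues, was at 116 and 128 CPM in IMP1-OE and 102 and 109.9 CPM in null, a log2 fold change of 0.20 (SE 0.17, edgeR adjusted p 0.722). PSMB6, which cuts after acidic residues, was at 138.4 and 137.8 CPM in IMP1-OE and 132 and 137 CPM in null, a log2 fold change of 0.04 (SE 0.16, edgeR adjusted p 0.957) that was 0.01 or 0.06 when null replicate 1 or 2 was omitted. PSMB7, which cuts after basic residues, was at 221 and 268 CPM in IMP1-OE and 193 and 191 CPM in null, a log2 fold change of 0.35 (SE 0.18, edgeR adjusted p 0.551) that was 0.21 without IMP1-OE replicate 2. None of the 3 had overlapping groups, but for PSMB6 the gap between the nearest libraries was under 1 CPM. The remaining members are structural. PSMB3 was at 1192 and 1036 CPM in IMP1-OE and 995 and 840 CPM in null, with a log2 fold change of 0.28 that was 0.16 without null replicate 2. PSMB1 was lower in IMP1-OE, at 201 and 207 CPM against 218 and 290 CPM in null, with a log2 fold change of -0.31 that was -0.09 without null replicate 2.

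The ATPase ring of the base held the member with the largest positive fold change. PSMC1 stood at 205 and 195 CPM in IMP1-OE and at 137 and 143 CPM in null. Replicates lay close together and the groups were well apart, with a log2 fold change of 0.52 (SE 0.16, edgeR adjusted p 0.450) that was 0.49 or 0.55 when null replicate 1 or 2 was omitted. PSMC6 was at 107 and 98.0 CPM in IMP1-OE and 70.7 and 80.2 CPM in null, a log2 fold change of 0.44 (SE 0.18, edgeR adjusted p 0.485). PSMC2, PSMC3 and PSMC5 were higher by 0.28, 0.31 and 0.19 on the log2 scale, each without overlap of the groups. PSMC5 was 0.06 without null replicate 2, and PSMC3 was 0.17 without IMP1-OE replicate 2. PSMC4 differed in sign: it was at 220 and 228 CPM in IMP1-OE and at 221 and 307 CPM in null, and its log2 fold change of -0.24 was 0.02 without null replicate 2.

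The large scaffold subunits and ubiquitin receptors of the base were all 4 higher in IMP1-OE, with no overlap of the groups and a median of 0.35. PSMD2, a scaffold that docks ubiquitin-like domains, was at 450 and 465 CPM in IMP1-OE and 356 and 340 CPM in null, a log2 fold change of 0.39 (SE 0.16, edgeR adjusted p 0.485). PSMD1, the other scaffold, was at 264 and 260 CPM in IMP1-OE and 221 and 170 CPM in null, a log2 fold change of 0.42 (SE 0.19, edgeR adjusted p 0.513) that was 0.25 without null replicate 2. ADRM1, a ubiquitin receptor that also recruits the deubiquitinase UCHL5, was at 477 and 502 CPM in IMP1-OE and 410 and 380 CPM in null, a log2 fold change of 0.31 (SE 0.16, edgeR adjusted p 0.559). PSMD4, the other intrinsic receptor, was higher by 0.15.

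In the lid, 7 of 8 subunits were higher in IMP1-OE without overlap of the groups, with a median of 0.30. PSMD14, the metalloprotease that cuts ubiquitin off the substrate, was at 161 and 154 CPM in IMP1-OE and 122 and 99.7 CPM in null. Its log2 fold change was 0.51 (SE 0.18, edgeR adjusted p 0.46). PSMD13 was at 415 and 407 CPM in IMP1-OE and 318 and 303 CPM in null, a log2 fold change of 0.41 (SE 0.16, edgeR adjusted p 0.482). PSMD11, a lid scaffold, was at 302 and 317 CPM in IMP1-OE and 235 and 245 CPM in null, a log2 fold change of 0.37 (SE 0.16, edgeR adjusted p 0.506). These 3 lid genes had replicates that lay closer together than the groups did. PSMD8 was the exception among the lid genes, at 236 and 242 CPM in IMP1-OE and 267 and 337 CPM in null, with a log2 fold change of -0.34 (SE 0.19) that was -0.16 without null replicate 2.

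Assembly factors bind particles under construction and are not part of the finished one. POMP, which helps build the beta ring, was at 309 and 316 CPM in IMP1-OE and 195 and 277 CPM in null, with a log2 fold change of 0.40 (SE 0.21, edgeR adjusted p 0.566). Omitting null replicate 2 gave 0.68 and omitting null replicate 1 gave 0.17. The 5 core assembly factors were all higher in IMP1-OE, but only POMP and PSMG1 had groups that did not overlap. PSMG1, a chaperone of the alpha ring, was at 42.7 and 49.8 CPM in IMP1-OE and 36.1 and 32.5 CPM in null. PSMG3 and PSMG4 had between 107 and 273 counts per library, and their standard errors were 0.36 and 0.32. Of the chaperones of the base, PSMD5 and PSMD9 were higher by 0.35 and 0.46 and PSMD10 was lower, with a log2 fold change of -0.18; without null replicate 2, PSMD5 was 0.22 and PSMD10 -0.08. PSMD9 was at 51.3 and 40.5 CPM in IMP1-OE and 42.9 and 23.7 CPM in null, so its groups overlapped and its value was 0.10 without null replicate 2.

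Summing the CPM of all members of a role, the low ones included, gave each library's level by role. The summed level of all 48 members was 10211 and 10183 CPM in IMP1-OE and 8973 and 9126 CPM in null, 12.7% higher in IMP1-OE. The lid sum was 1860 and 1858 CPM in IMP1-OE against 1575 and 1590 CPM in null, 17.5% higher. The scaffold and receptor sum was 25.8% higher, the alpha ring sum 18.9%, the ATPase sum 15.5% and the constitutive beta ring sum 12.8%. For each of these 5 role groups both IMP1-OE libraries were above both null libraries. Such sums weigh abundant genes most. In the alpha ring, PSMA7 averaged 694 CPM with IMP1-OE against 512 CPM for null, where the ring sum averaged 1752 against 1474 CPM. In the constitutive beta ring, PSMB3 averaged 1114 against 917 CPM, where the ring sum averaged 2506 against 2222 CPM. Most of either rise thus came from that gene, and the sums of these rings say less about their other subunits. The sum of activators and inhibitor was lower, at 714 and 706 CPM in IMP1-OE against 787 and 1017 CPM in null. In these bulk libraries a lower level per cell and fewer expressing cells cannot be told apart.

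**Figure D2:**
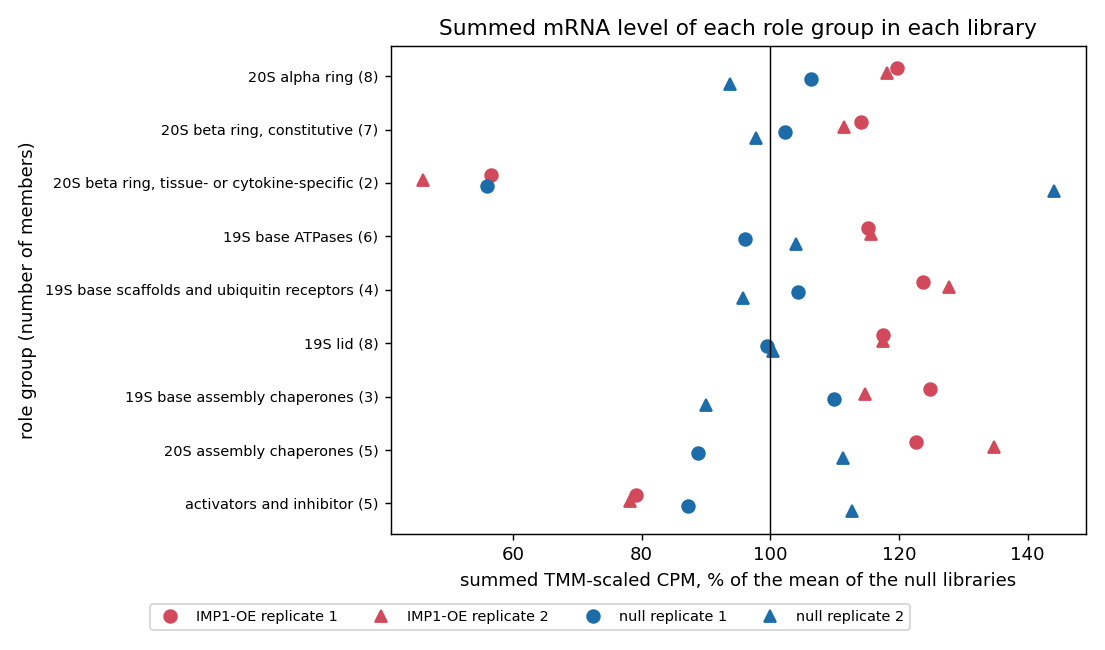
Summed TMM-scaled CPM of each role group in each library, as a percentage of the mean of the null libraries (line at 100). The IMP1-OE libraries (red) lie right of both null libraries (blue) for all groups but the tissue- or cytokine-specific beta subunits and the activators, where null replicate 2 (blue triangle) is farthest right.

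The members that interferon is known to induce lay on the other side. PSMB10, the inducible counterpart of PSMB7, was at 96.3 and 78.6 CPM in IMP1-OE and at 95.9 and 246 CPM in null. Null replicate 1 lay among the IMP1-OE libraries and null replicate 2 far above all of them. The log2 fold change was -0.97 (SE 0.43, edgeR adjusted p 0.511); omitting null replicate 2 gave -0.13 and omitting null replicate 1 gave -1.49. The level of PSMB10 per length of transcript relative to PSMB7 was 0.440 and 0.296 in IMP1-OE and 0.501 and 1.30 in null replicates 1 and 2. PSMB10 mRNA thus exceeded that of its constitutive counterpart in null replicate 2 and in no other library.

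PSME1 and PSME2 encode the alpha and beta chains of PA28, the activator ring that opens the barrel without ATP. PSME1 was at 213 and 198 CPM in IMP1-OE and at 294 and 473 CPM in null. Its groups did not overlap. The log2 fold change was -0.90 (SE 0.26, edgeR adjusted p 0.435), and with null replicate 2 omitted it was -0.52, with null replicate 1 omitted -1.20. PSME1 was thus lower in IMP1-OE under either omission, though past the adjusted threshold only under the second. PSME2 was at 126 and 132 CPM in IMP1-OE and at 143 and 246 CPM in null. Its log2 fold change was -0.59 (SE 0.28, edgeR adjusted p 0.528), and the same omissions gave -0.15 and -0.93. In the authors' deposited table PSME1 has the smallest adjusted p of the members, 0.0720, with a log2 fold change of -0.70. DESeq2 run here gave the same adjusted p with a log2 fold change of -0.90. The deposited log2 fold changes are thus not on the scale of those above: PSMB10 has -0.21 there and -0.96 in DESeq2 run here.

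With null replicate 1 left out, edgeR called PSME1, PSME2 and PSMB10 as lower in IMP1-OE, 3 of 46 members (6.52%, against 6.46% of all genes). The null arm was then a single library, assumed to vary like the IMP1-OE ones. With null replicate 2 left out it called 0 members, against 0.396% of all genes. PSMB8 and PSMB9, outside the set, were also highest in that library. PSMB8 was at 18.8 and 26.1 CPM in IMP1-OE and 24.5 and 114 CPM in null, and PSMB9 had 5 and 14 counts in IMP1-OE and 9 and 384 in null. All 12 interferon-inducible antigen processing genes were lower in IMP1-OE, against 51.9% of all genes. Of the 12, 6 had an unadjusted edgeR p under 0.05, against 5.84% of all genes lower at that p, and 0 passed the adjusted threshold. The 12 genes summed to 1238 and 1198 CPM in IMP1-OE against 1499 and 3764 CPM in null replicates 1 and 2. Their median log2 fold change was -1.21, and with null replicate 2 omitted it was -0.20, with 8 lower, 4 higher and 0 past the adjusted threshold. B2M, the light chain of MHC class I, was at 629 and 569 CPM in IMP1-OE and 831 and 1776 CPM in null. ERAP1, a peptide-trimming enzyme, was at 26.8 and 20.6 CPM in IMP1-OE and 42.5 and 39.3 CPM in null, and its log2 fold change of -0.79 was -0.84 without null replicate 2. NLRC5, the transactivator of MHC class I genes, was at 0.571 and 1.62 CPM in IMP1-OE and 2.84 and 13.4 CPM in null. TAPBPL, a peptide editor, was at 2.38 and 3.80 CPM in IMP1-OE and 5.97 and 12.8 CPM in null. The part of the interferon-stimulated genes in the differences of PSMB10, PSME1 and PSME2 was not tested. Leaving out null replicate 2 removes that library with everything else that sets it apart, so it cannot test this.

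**Figure D3:**
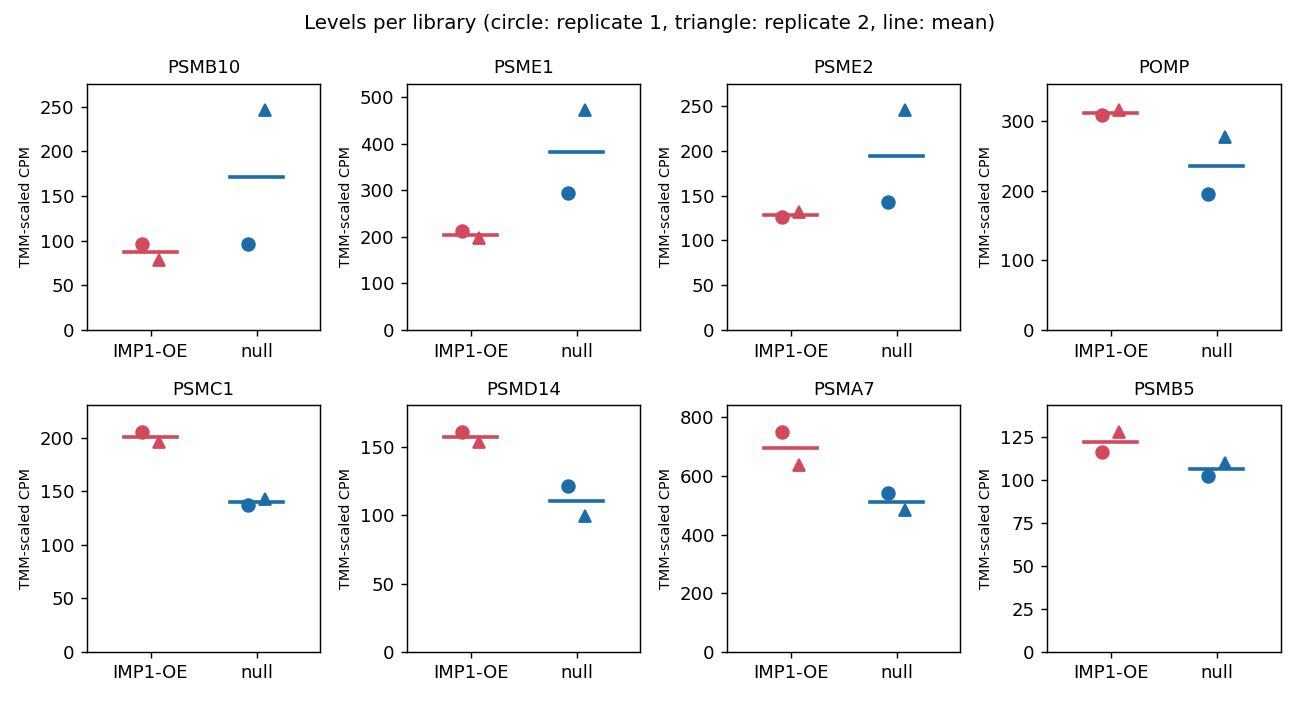
TMM-scaled CPM of 8 members in each library (circle for replicate 1, triangle for replicate 2, line for the mean of a group). In null replicate 2, PSMB10, PSME1 and PSME2 were at 246, 473 and 246 CPM, above the other 3 libraries, while PSMC1, PSMD14, PSMA7 and PSMB5 were highest in IMP1-OE with both null libraries below.

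The other activators lay elsewhere. PSME3, the nuclear PA28 chain, was at 171 and 176 CPM in IMP1-OE and 160.02 and 129 CPM in null, a log2 fold change of 0.26 (SE 0.18, edgeR adjusted p 0.663). PSME4, the PA200 activator linked to histone breakdown, was at 102 and 100.3 CPM in IMP1-OE and 87.6 and 67.1 CPM in null, a log2 fold change of 0.39 (SE 0.20, edgeR adjusted p 0.554). Both lay without overlap above null, the opposite side from PSME1 and PSME2, but without null replicate 2 their log2 fold changes were 0.11 and 0.21. PSMF1, the inhibitor PI31, was between 100.2 and 103 CPM in all 4 libraries, with a log2 fold change of -0.01 (SE 0.16) that was 0.07 under library totals only.

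Promoters of the members were read for short motifs. The first motif below was added because PSMB10, PSME1 and PSME2 were high together in null replicate 2. RefSeq promoters of GRCh38.p14 (250 bases before to 50 after a gene's start) were found for 42 of the 48 members; PSMA7, PSMB1, PSMB6, PSMB7, PSMD4 and PSMG3 had none in that table. The core of the interferon-stimulated response element, which is GAAA, any 2 bases and GAAA on either strand, was in the promoters of 6 members: PSMB10, PSME1, PSME2, PSMG4, PSMA4 and PSMB4. That is 14.3% of the 42, against 4.38% of all genes in the table and 3.74% of the tested genes outside the set. This motif was chosen after the levels had been seen. PSMB10, PSME1 and PSME2, which prompted the choice, are among the 6, so the share is not a test. The 4 matches that share the same 10 letters are shown with 10 bases on either side, match in capitals, on the strand of the gene.
PSMB10 (chr16:67936852-67936881, minus strand, match from position -21): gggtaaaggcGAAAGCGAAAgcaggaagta
PSME2 (chr14:24146619-24146648, minus strand, match from position -28): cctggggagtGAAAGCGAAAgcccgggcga
PSME1 (chr14:24136189-24136218, plus strand, match from position 6, reversed): gccctaccgcTTTCGCTTTCccttcgcggt
PSMG4 (chr6:3258904-3258933, plus strand, match from position -33): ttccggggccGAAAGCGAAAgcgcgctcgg
Positions count from the annotated start, negative before it. PSMG4, an alpha ring chaperone, shares the letters with the 3 others but stood at 13.8 and 16.3 CPM in null replicates 1 and 2. The log2 difference of null replicate 2 over null replicate 1 was 1.36 for PSMB10, 0.78 for PSME2, 0.68 for PSME1 and 0.24 for PSMG4, and 0.15 for PSMB4 and -0.09 for PSMA4, whose matches have other letters in the middle. Outside the set, the PSMB8 promoter held the same 10 letters, reversed, and the PSMB9 promoter had no match of this core. The log2 difference between the null libraries was 2.21 for PSMB8 and 5.22 for PSMB9.

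The core of the antioxidant response element that NFE2L1 binds, TGACNNNGC on either strand, was in 15 of the 42 promoters (35.7%), against 16.1% of all genes in the table and 19.3% of the tested genes outside the set. Examples from the barrel and its assembly are given in the same format, as this is the element through which proteasome genes are known to be raised together.
PSMA4 (chr15:78540650-78540679, plus strand, match from position -126): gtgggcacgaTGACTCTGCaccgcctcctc
PSMB3 (chr17:38752627-38752656, plus strand, match from position -104): gcctccgtttTGACTTTGCaaccaaactac
PSMG1 (chr21:39183615-39183644, minus strand, match from position -183): gcccagggcaTGACAGCGCgggcgggcggt
Of the 15 tested members with the letters, 12 were higher in IMP1-OE, while PSMC4, PSME1 and PSME2 were lower. Of the 25 tested members without them, 19 were higher. The median log2 fold change was 0.27 over the 15 and 0.30 over the 25, a difference that was not tested. CCAAT was in 47.6% of the member promoters and 39.7% of all genes, and CACGTG, which reads the same on both strands, in 7.14% and 8.77%. No match of a motif overlapped a match of another in these promoters. A match describes letters and not a bound site.

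NFE2L1 itself, named here after its values were seen, was at 99.1 and 112 CPM in IMP1-OE and 109 CPM in each null library, a log2 fold change of -0.05 (SE 0.17). Of 29 partners and regulators of the proteasome, 18 were higher and 11 lower in IMP1-OE, the median being 0.07. At an unadjusted edgeR p under 0.05, 2 were higher and 2 lower, where 4.34% and 5.84% of all genes were. UCHL5, the deubiquitinase that docks on ADRM1, was at 52.9 and 60.1 CPM in IMP1-OE and 39.6 and 40.6 CPM in null. UFD1, an adaptor of the unfolding ATPase VCP, was at 203 and 201 CPM in IMP1-OE and 149 and 154 CPM in null. VCP was lower, at 504 and 522 CPM in IMP1-OE and 645 and 712 CPM in null. UBB, which encodes a ubiquitin chain, was also lower, at 726 and 735 CPM in IMP1-OE and 911 and 1150.1 CPM in null. For these 4 genes the groups did not overlap, and edgeR adjusted p ran from 0.464 to 0.484.

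The fits with each null library left out show how far the members' values rest on either one. Of the 46 members, 36 were higher in IMP1-OE under each of these omissions. Over all 12113 genes, 6031 were higher without null replicate 1 and 6146 without null replicate 2. Under both omissions 34 members were higher, and 33 with any of the 4 libraries left out, counts not taken over all genes. These fits share libraries, so their agreement is partly built in. The size did depend on the null library. The median log2 fold change of the members was 0.31 or 0.16 when null replicate 1 or 2 was omitted, where all genes had medians of -0.0033 and 0.0071. The members closest in both fits were PSMD4 (0.15 and 0.15), PSMD12 (0.27 and 0.28), PSMF1 (-0.02 and -0.01), PSMB7 (0.36 and 0.34) and PSMA5 (-0.22 and -0.23), of which PSMA5 and PSMF1 were lower in IMP1-OE. PSMD9, PSMA3, PSMD6 and PSMD1 had values of 0.95, 0.59, 0.59 and 0.63 under the first omission and of 0.10, 0.06, 0.12 and 0.25 under the second.

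**Figure D4:**
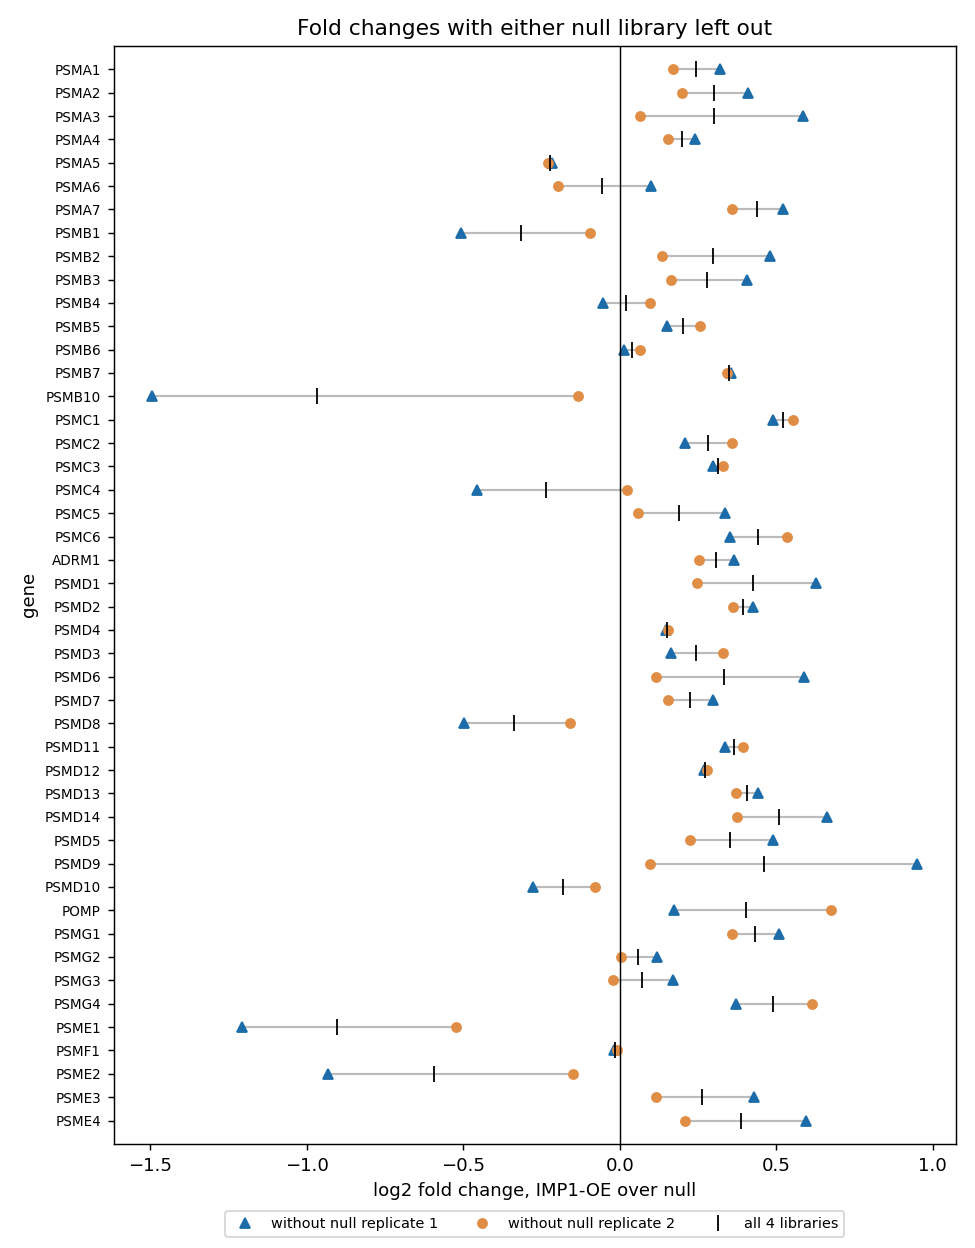
Log2 fold change, IMP1-OE over null, of the 46 tested members with null replicate 1 left out (triangle), null replicate 2 left out (circle) and all 4 libraries (tick). PSMB10 spans -1.49 to -0.13 and PSMB7 0.34 to 0.36.

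Levels of the tested members spanned 17.7 to 2505 once set per transcript length. They were scaled by the length of the deposited target transcript and to the same total over all targets in each library, as TPM, and averaged over the 4 libraries. PSMB3 was the most abundant at 2505 TPM, 11.6 times the median of the tested members, 216. PSMA7 followed at 1179, and PSMB4 was at 727. The ratio of PSMB3 to PSMA7 was 2.00 and 2.05 in IMP1-OE and 2.32 and 2.19 in null. After PSMB3 and PSMA7 the order differed between the groups: ADRM1 averaged 606 TPM in IMP1-OE and 480.3 TPM in null, and PSME1 averaged 403 TPM in IMP1-OE and 744 TPM in null. The null libraries differed in PSME1, at 556 TPM in replicate 1 and 931 TPM in replicate 2, with ADRM1 at 489 and 472 TPM. Subunits that stand in equal number in the particle had unequal mRNA: PSMA5 was at 93.6, PSMB2 at 126 and PSMC1 at 72.9. These 3 have deposited transcripts of 3815, 4426 and 4390 nt, and a shorter transcript in the cells would make the length-scaled level too low. The core assembly factors lay between 17.7 for PSMG3 and 66.2 for PSMG2, except POMP at 386. The chaperones of the base lay between 27.3 (PSMD9) and 41.8 (PSMD10).

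**Figure D5:**
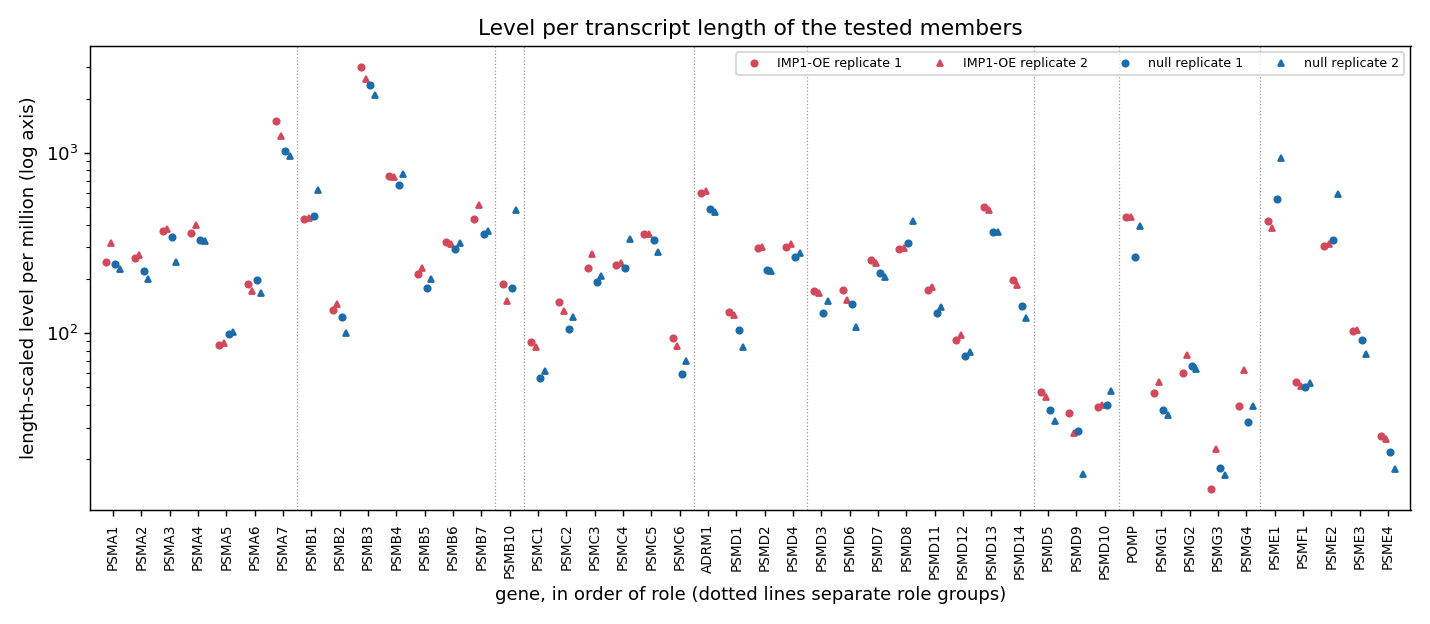
Length-scaled level in TPM (log axis) of the 46 tested members in each library, ordered by role. PSMB3 and PSMA7 are highest and PSMG3, PSME4 and PSMD9 lowest. PSMB10, PSME1 and PSME2 stand out by the gap of null replicate 2 (blue triangle) above the other libraries.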

How the data were processed

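Per the labels' protocols, lysate RNA was fragmented by heating at high pH, size-selected at 18 to 50 nt, joined to linkers carrying random identifiers and depleted of ribosomal RNA. The submitters' processing notes name kallisto 0.46.2, DESeq, HISAT2 2.1.0, fastp 0.21 and cutadapt 3.5 but state no role for any. The genome build was not given in the sources used here. The deposited values are kallisto's estimated counts, whole as deposited, for 1 transcript of each gene, per the file headers. Counts of near-identical sequences may be split between genes, no source used here says if PCR duplicates were removed by identifier, and the floor of 3 counts covers counting error only. The authors' deposited comparison table gives a mean normalized signal, log2 fold changes with errors, and p-values, per the file headers. The table's 2 further sample names match no label used here and are not analysed here.

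Counts were tested with edgeR 4.0.16 in R 4.3.3 (TMM scaling, default low-count filter, 12113 genes kept, quasi-likelihood F test, IMP1-OE against null, no covariate), with Benjamini-Hochberg adjustment over all genes and a threshold of 0.05. The SE of a log2 fold change is its size divided by the root of F. For 2 against 2 libraries the smallest p of a two-sided exact permutation test is 0.333. Log2 differences between single libraries used CPM plus 0.25. Length-scaled levels are counts per target length, brought to 1 common total per library, in the manner of TPM. The steps were tested on simulated data. Alternatives were limma 3.58.1 with voom, DESeq2 1.42.0, a block for replicate number, leaving out each library, and other scalings or low-count filters. Members were chosen by symbol, and values per library were given for the 10 members with the smallest p, the activators, the catalytic subunits, POMP, ADRM1 and, from each other list, up to 5 genes with an unadjusted p under 0.05. Values per library of further members were added after they were seen. Members and lists were chosen with earlier results of these data known.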

Additional observations from a re-analysis of the deposited data

How the results depend on the processing

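No proteasome member was called with all 4 libraries by edgeR, under any other scaling or filter tried, with the replicate block, by DESeq2 or by limma-voom. Genes called over the whole table numbered 0 with edgeR, 22 with no low-count filter, 164 with DESeq2, 1 with limma-voom and 15 with the replicate block, and 0 to 783 with 1 library left out. DESeq2 without a library, added after the data were seen, called 1025 genes without null replicate 1, 263 without null replicate 2, and 27 and 33 without IMP1-OE replicate 1 and 2. Members called ranged from 0 to 3 with 1 library left out in edgeR, and DESeq2 called 7 (15.2%, against 8.4% of all genes) without null replicate 1 and 1, POMP (2.17%, against 2.11%), without null replicate 2. Members at an unadjusted p under 0.05 numbered 6 higher and 1 lower in edgeR. They numbered 3 and 3 with no low-count filter (6.38% each, against 3.29% and 5.24% of all genes) and 2 and 1 with the replicate block (4.35% and 2.17%, against 4.61% and 5.87%), and DESeq2 gave 2 lower (4.26%, against 4.44%). With 1 library left out they ranged from 0 to 18 higher and from 0 to 6 lower, both highest without null replicate 1 (39.1% and 13%, against 12.7% and 12.2% of all genes). The median log2 fold change of the tested members was 0.36 under library totals only, and 0.16 to 0.31 with 1 library left out. Under library totals only, the summed level was higher in IMP1-OE by 19.1% for all members, 19.3% for the constitutive beta ring, 22.0% for the ATPases, 32.9% for the scaffolds and receptors and 24.2% for the lid.

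The log2 fold changes of 6 members changed sign, among them PSMC4, at -0.24 with all 4 libraries, and 5 closer to 0. Under library totals only PSMA6 was 0.0252 and PSMF1 0.0665, and PSMF1 was 0.0021 under upper quartile scaling. With 1 library left out, PSMA6 ran from -0.1976 to 0.0998, PSMF1 from -0.0314 to 0.0181, PSMB4 from -0.0532 to 0.0965, PSMC4 from -0.4554 to 0.0219, PSMG2 from -0.1124 to 0.2253 and PSMG3 from -0.3529 to 0.4076. The cause of these changes was not tested. The same replicate number is not stated to mark a shared batch, and the deviations of same-numbered libraries from their group means correlated at 0.12 over 12113 genes, so the block result is given only here. Among the tested members PSMG3 had the fewest counts over the 4 libraries, and its standard error of 0.36 was second to that of PSMB10.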
